A study of Mus musculus with 14 samples.

Results

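The genes described here are 10 genes of blood and lymph vessels and of the vascular endothelial growth factor (VEGF) pathway, chosen by name and found on 1 row each among the 23282 genes of the count table. They comprise 3 endothelial markers (Pecam1, Cdh5 and Vwf), 3 VEGF receptors (Kdr, Flt1 and Flt4), 2 receptors of the angiopoietin system (Tek and Tie1) and 2 ligands (Vegfa and Vegfb). None of the 10 genes passed a false discovery rate (FDR) of 0.05 between Western diet and control fat in edgeR's quasi-likelihood test. Of all genes tested, 0% passed within batch 1, the only batch with both diets. The share was 0.53% over all 14 libraries and 6.4% against the batch 2 controls. Vegfa was lower in 4 of 5 Western diet libraries than in every one of the 9 control libraries, and its call depended on the libraries and the tool used. For each of the 8 endothelial genes (the markers and receptors), the mean of the Western diet group differed from that of either control group by less than the larger SD of the 2 groups.

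Endothelial cells line every vessel of the fat pad, and Pecam1, Cdh5 and Vwf encode their adhesion molecule CD31, their junction protein VE-cadherin and the clotting protein von Willebrand factor. VEGF-A, which fat cells and other cells secrete, binds the receptors encoded by Kdr (VEGFR2, the main signaling receptor of blood vessel growth) and Flt1 (VEGFR1, which binds VEGF-A tightly and limits its action). VEGF-B binds VEGFR1, and Flt4 encodes VEGFR3, the receptor of VEGF-C and VEGF-D on lymphatic vessels. Tek encodes TIE2, the receptor of the angiopoietins that keeps vessels stable, and Tie1 encodes its partner receptor.

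Epididymal white adipose tissue (eWAT), the visceral fat pad beside the epididymis, was taken from wild-type male C57BL/6J mice fed a normal diet (control group) or a Western diet (WD group) for 20 weeks, and the study looked for inflammatory signals that this fat releases on a WD and for their bearing on the brain. RNA of 14 mice was measured by QuantSeq, which reads the 3′ end of each mRNA, in 4 controls and 5 WD mice of batch 1 and 5 controls of batch 2. The mice started the diets as young animals, and the labels give no age at collection. Every WD library was in batch 1, so that a difference between the WD group and the batch 2 controls cannot be told apart from a difference between batches.

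The libraries held 10278970 to 13712254 counts, and levels are given as CPM, counts per 1000000 counts of the library after trimmed-mean scaling. The limit that a count of 0 allows, 3 counts, equals 0.219 to 0.292 CPM before that scaling, and covers counting error only, as no molecular identifiers are stated. Control replicates 1 and 4 of batch 1 stood apart from the rest. In control replicate 1 a list of 15 epididymis genes, led by Gpx5 and Lcn5, summed to 172795 CPM, against at most 51.4 CPM in any other library, and 8 adipocyte genes summed to 4982 CPM, against at least 23025 CPM elsewhere. Control replicate 4 had a count for 7999 genes, against 10903 to 13780 in the other libraries. The markers of fat tissue were thus present in all 14 libraries and low in control replicate 1.

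The promoters of the 2 ligands, the only ones of the 10 genes with an unadjusted p under 0.05 in any comparison, and of the 2 main VEGF receptors, whose counts parted in control replicate 4 as described further on, are shown for context. RefSeq (GRCm38.p6) gave 300 bases around the start, 250 before and 50 after it, for 7 of the 10 genes; Pecam1, Cdh5 and Vwf had no entry. The 4 shown, for Vegfa the first of 2 starts, lie on the minus strand and are written 5′ to 3′. Capitals mark the GC box GGGCGG and the ETS core GGAAGT on either strand, which were found in 35.7% and 23.8% of 32851 promoters of the same length. The 2 motifs did not overlap here, and a match describes the letters only. The RNA counts do not measure these sequences. The promoter of Vegfa lies at chr17:46032328-46032627, that of Vegfb at chr19:6987602-6987901, that of Kdr at chr5:75978406-75978705 and that of Flt1 at chr5:147725962-147726261.
Vegfa: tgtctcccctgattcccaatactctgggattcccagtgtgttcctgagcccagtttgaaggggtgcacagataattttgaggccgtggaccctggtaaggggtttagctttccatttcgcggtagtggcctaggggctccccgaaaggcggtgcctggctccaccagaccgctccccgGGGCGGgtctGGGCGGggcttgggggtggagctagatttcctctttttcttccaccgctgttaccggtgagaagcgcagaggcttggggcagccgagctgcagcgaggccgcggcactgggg
Vegfb: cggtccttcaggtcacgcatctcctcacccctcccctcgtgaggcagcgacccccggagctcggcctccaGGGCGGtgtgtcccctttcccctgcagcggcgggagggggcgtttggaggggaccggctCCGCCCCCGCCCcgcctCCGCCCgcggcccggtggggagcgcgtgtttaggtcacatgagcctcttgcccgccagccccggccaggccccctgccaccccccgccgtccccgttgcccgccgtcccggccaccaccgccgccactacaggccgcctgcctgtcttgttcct
Kdr: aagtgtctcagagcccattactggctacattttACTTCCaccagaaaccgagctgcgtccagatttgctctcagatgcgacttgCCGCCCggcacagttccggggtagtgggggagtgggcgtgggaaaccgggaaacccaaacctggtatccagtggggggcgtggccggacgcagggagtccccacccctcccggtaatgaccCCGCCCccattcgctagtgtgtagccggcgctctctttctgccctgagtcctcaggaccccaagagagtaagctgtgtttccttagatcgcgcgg
Flt1: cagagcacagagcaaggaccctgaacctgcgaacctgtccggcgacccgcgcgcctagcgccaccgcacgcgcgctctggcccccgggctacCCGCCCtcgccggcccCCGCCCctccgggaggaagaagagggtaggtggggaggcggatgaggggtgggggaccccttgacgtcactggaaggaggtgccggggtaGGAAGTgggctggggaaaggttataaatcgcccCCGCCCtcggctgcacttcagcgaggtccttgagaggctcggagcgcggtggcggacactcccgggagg
GC boxes numbered 2 in Vegfa, 4 in Vegfb, 2 in Kdr and 3 in Flt1, and the ETS core was present 1 time each in Kdr and Flt1 and was not found in the Vegfb window or this Vegfa window. The window of the second Vegfa start, at chr17:46025114-46025413, held 1 GC box and 1 ETS core. Among the windows not shown, Flt4 had 3 GC boxes, Tie1 had 1 ETS core and Tek had neither motif. Also sought, but not marked, were the hypoxia-inducible factor core ACGTG and the TATA motif TATAAA, found in 19.6% and 13.6% of the 32851 promoters. No window shown held ACGTG, and TATAAA was present 1 time in Flt1 only. The window of the second Vegfa start held ACGTG 1 time.

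Vegfa (chromosome 17, 46016993 to 46032377, minus strand, mm10) was lower in most WD libraries than in the controls. In the batch 1 controls it was 98.3, 392, 286 and 81.9 CPM in replicates 1 to 4, and in the WD group 27.1, 94.2, 74.3, 19.3 and 48.5 CPM in replicates 1 to 5. The batch 2 controls had 96.8, 102, 82.7, 91.5 and 95.3 CPM. The control libraries of batch 2 and control replicates 1 and 4 of batch 1 thus lay close together, control replicates 2 and 3 lay far above them, and in the WD group only replicate 2 reached the range of the controls.

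**Figure D1:**
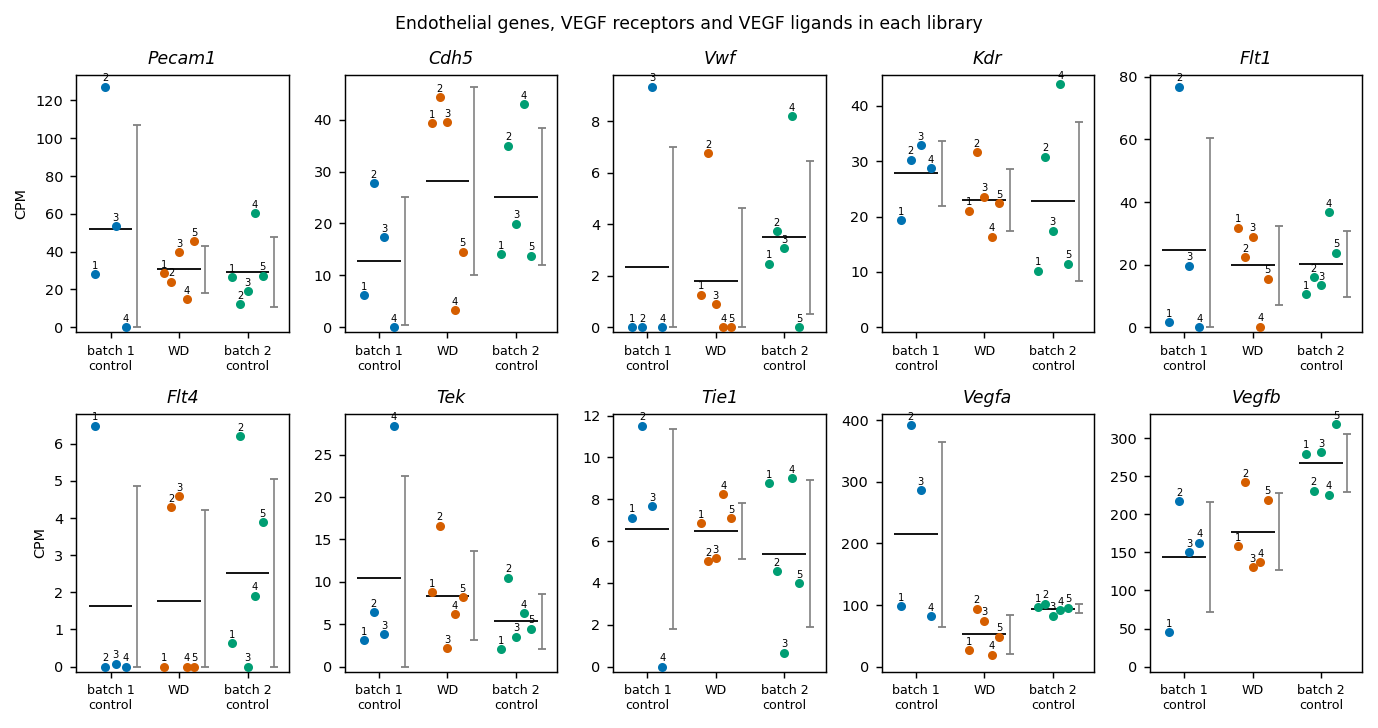
Level in CPM (y axis, a scale of its own in each panel) of the 10 genes in 4 batch 1 controls, 5 WD libraries and 5 batch 2 controls; points are libraries with their replicate number, black lines are group means and grey bars are the SD around the mean, ended at 0. Vegfa was below 81.9 CPM in 4 of 5 WD libraries, and Pecam1, Cdh5, Flt1 and Tie1 were at 0 in batch 1 control replicate 4.

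Within batch 1, where diet is not mixed with batch, Vegfa was 215 ± 150.2 CPM across the control group (SD, n = 4) and 52.7 ± 31.5 CPM across the WD group (SD, n = 5). Its log2 fold change was -2.03 (standard error, SE, 0.56, 95% interval -3.24 to -0.82, unadjusted p = 0.0031 and FDR = 0.443 in edgeR's quasi-likelihood test), which was the lowest p of the 9 members tested and rank 85 of 12157 genes. Relative to the batch 2 controls, at 93.7 ± 7.27 CPM (SD, n = 5), the log2 fold change was -0.85 (SE 0.34, FDR = 0.179 in edgeR's test). Over all 14 libraries it was -1.50 (SE 0.47, FDR = 0.245 in edgeR's test) without a batch term and -2.05 (FDR = 0.116 in the same test) with batch as a covariate. The batch 2 controls themselves lay below the batch 1 controls by a log2 fold change of -1.20 (SE 0.41, FDR = 0.509 in edgeR's test). The estimate between the control groups of the 2 batches was thus no smaller than that between the WD group and the batch 2 controls. These comparisons share libraries, and the difference between them was not tested.

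The call for Vegfa depended on the libraries kept and on the tool. Without control replicates 1 and 4 of batch 1, both of which stood apart, the log2 fold change within batch 1 was -2.69 (FDR = 0.0174 in edgeR's test), and over the remaining 12 libraries it was -1.66 (FDR = 0.0416 in the same test). In the same setting the batch 2 controls were lower than the 2 remaining batch 1 controls (log2 fold change -1.85, FDR = 0.00116 in edgeR's test). Only these 2 batch 1 controls then remained, at 392 and 286 CPM. The 2 left out had the lowest Vegfa of the batch 1 controls, 98.3 and 81.9 CPM. Leaving them out thus lowered each of these estimates by construction. DESeq2 gave an FDR of 0.0312 within batch 1 and 0.0427 over all 14 libraries. Against the batch 2 controls the FDR was 0.0285 in edgeR's test without WD replicate 2 and 0.0432 in limma-voom. WD replicate 2 had the highest Vegfa of the WD group, 94.2 CPM, so leaving it out lowered the estimate by construction.

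Vegfb (chromosome 19, 6982472 to 6987651, minus strand) was 44.9, 217, 150.3 and 163 CPM in the batch 1 controls and 158, 242, 130.4, 137 and 219 CPM in the WD group. In the batch 2 controls it was 279.7, 231, 282, 226 and 318 CPM. The WD group lay within the range of the batch 1 controls apart from its 2 highest libraries, whereas all 5 batch 2 controls exceeded all 4 batch 1 controls and 4 of 5 WD libraries were below every batch 2 control. Groups that do not overlap were found for 5.29% of the genes tested between the batches.

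The mean level of Vegfb was 144 ± 72.1 CPM across the batch 1 controls (SD, n = 4), 177 ± 50.5 CPM across the WD group (SD, n = 5) and 267 ± 38.7 CPM across the batch 2 controls (SD, n = 5). Within batch 1 the log2 fold change of the WD group was 0.30 (SE 0.40, 95% interval -0.58 to 1.17, FDR = 1.00 in edgeR's test). Relative to the batch 2 controls it was -0.61 (SE 0.21, 95% interval -1.05 to -0.16, unadjusted p = 0.0102 and FDR = 0.109 in the same test). Its sign thus differed with the control group used, and over all 14 libraries it was -0.28 (SE 0.33, FDR = 0.999 in edgeR's test). Batch 2 controls were higher than batch 1 controls by a log2 fold change of 0.89 (SE 0.37, FDR = 0.621 in edgeR's test). Without WD replicate 2, the FDR against the batch 2 controls was 0.0217 in edgeR's test. That library had the highest Vegfb of the WD group, 242 CPM, so leaving it out lowered the estimate by construction.

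The ratio of the 2 ligands within a library is free of the scaling to library size. Vegfa counts divided by Vegfb counts gave 2.19, 1.80, 1.91 and 0.502 in batch 1 control replicates 1 to 4. The ratio was 0.172, 0.389, 0.570, 0.141 and 0.221 in the WD group, and 0.346, 0.442, 0.294, 0.405 and 0.300 in the batch 2 controls. Control replicates 1, 2 and 3 of batch 1 stood above all other libraries, and the WD range held all 5 batch 2 controls and batch 1 control replicate 4.

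**Figure D2:**
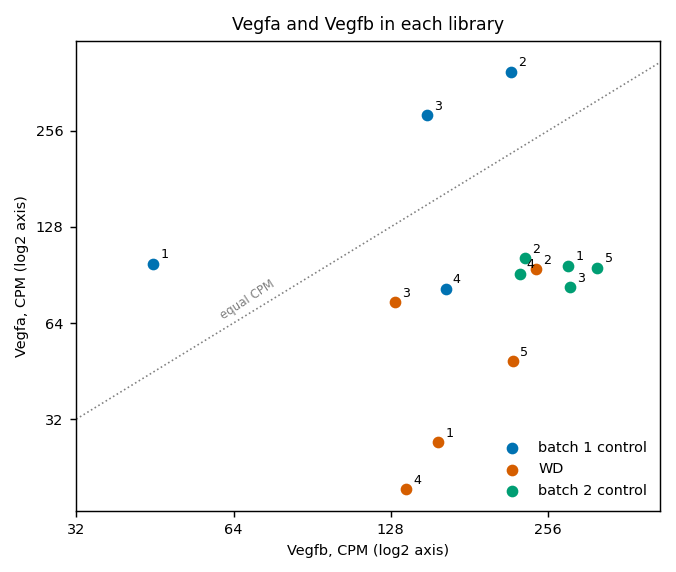
Vegfa (y axis) against Vegfb (x axis) in CPM on log2 axes, 1 point per library with its replicate number, with the line of equal CPM dotted. Batch 1 control replicates 1 to 3 lie above the line, and all 5 WD libraries, all 5 batch 2 controls and batch 1 control replicate 4 lie below it.

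Marker genes of fat cells and macrophages, read in the same libraries, passed the test only where diet and batch cannot be told apart, or over all 14 libraries. Within batch 1 none of the 12157 genes tested passed, so that failing there does not set these markers apart. The 8 adipocyte genes summed to 4982 to 41674 CPM in the batch 1 controls, 23025 to 36791 CPM in the WD group and 41684 to 49778 CPM in the batch 2 controls. The 9 macrophage genes summed to 178 to 1386 CPM, 1274 to 1857 CPM and 219 to 533 CPM in the same groups. The highest batch 1 control was replicate 4, which stood apart, and the other 3 had 178 to 556 CPM. Against the batch 2 controls, where 6.4% of all genes passed an FDR of 0.05 in edgeR's test, 5 of 8 adipocyte genes fell (Adipoq, Plin1, Retn, Lipe and Cidec) and Lep rose, while Fabp4, the most abundant, had a log2 fold change of -0.32 (FDR = 0.613). In the same comparison 7 of 9 macrophage genes rose, among them Adgre1, Cd68, Trem2, Csf1r, Itgax and Mrc1, with log2 fold changes of 1.19 to 4.53 for these 6. Within batch 1, 0 of 8 adipocyte genes (median log2 fold change 0.02, 1 with an unadjusted p under 0.05) and 0 of 9 macrophage genes (median 1.54, 5 with an unadjusted p under 0.05) passed. Their part in the values of Vegfa and Vegfb was not tested. In bulk tissue, fewer cells of a type and less RNA per cell cannot be told apart.

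None of the 3 endothelial markers passed the test between the WD group and either control group. Pecam1 (chromosome 11, 106654213 to 106715281, minus strand) was 28.1, 127, 53.5 and 0 CPM in the batch 1 controls. It was 28.6, 24.1, 39.8, 14.7 and 45.7 CPM in the WD group and 26.6, 12.2, 19.2, 60.3 and 27.4 CPM in the batch 2 controls. The batch 1 controls held both the highest and the lowest library of all 14, and the WD values lay between them. The log2 fold change was -0.78 (SE 1.05, 95% interval -3.05 to 1.50, FDR = 1.00 in edgeR's test) within batch 1 and 0.06 (SE 0.40, 95% interval -0.80 to 0.92, FDR = 0.977 in the same test) against the batch 2 controls. Without control replicate 2, the value within batch 1 was 0.15.

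Cdh5 (chromosome 8, 104101625 to 104144502, plus strand) was 6.16, 27.8, 17.3 and 0 CPM in the batch 1 controls and 39.3, 44.3, 39.5, 3.25 and 14.6 CPM in the WD group. The batch 2 controls had 14.1, 35.0, 19.9, 42.9 and 13.8 CPM. WD replicates 1 to 3 were above every batch 1 control, but WD replicate 4 was below all except control replicate 4. For Cdh5 the log2 fold change was 1.13 (SE 1.18, 95% interval -1.43 to 3.69, FDR = 1.00 in edgeR's test) within batch 1 and 0.15 (SE 0.53, FDR = 0.949 in the same test) against the batch 2 controls. GENCODE vM21 places the antisense gene Gm29682 over Cdh5, and since no strand setting of the counting is stated, reads of the 2 cannot be told apart.

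Vwf (chromosome 6, 125552948 to 125686679, plus strand) was sparse, with 0 counts in 6 of 14 libraries. Control replicate 3 had 112 counts and the other 3 batch 1 controls had 0. The WD libraries had 18, 63, 12, 0 and 0 counts and the batch 2 controls 35, 39, 41, 107 and 0 counts. Every group held libraries at 0, and the 3 groups overlapped. The log2 fold change against the batch 2 controls was -0.99 with a 95% interval of -4.24 to 2.26 (FDR = 0.852 in edgeR's test), and it ran from -2.68 (without WD replicate 2) to -0.41 (without batch 2 control replicate 4) when 1 library was left out. The libraries of a group differed widely in Vwf, and the interval allows both a large fall and a large rise. How large a change could be found was not tested.

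Among the VEGF receptors, Kdr (chromosome 5, 75933270 to 75978428, minus strand) was the most even within batch 1. It was 19.3, 30.3, 32.8 and 28.7 CPM in the batch 1 controls and 21, 31.7, 23.6, 16.4 and 22.4 CPM in the WD group. The batch 2 controls had 10.2, 30.8, 17.4, 43.9 and 11.5 CPM, a wider range than either batch 1 group. The group means were 27.8 ± 5.89 CPM (SD, n = 4), 23 ± 5.55 CPM (SD, n = 5) and 22.8 ± 14.3 CPM (SD, n = 5). The WD group's log2 fold change was -0.28 (SE 0.48, 95% interval -1.32 to 0.77, FDR = 1.00 in edgeR's test) within batch 1 and 0.00 (SE 0.40, 95% interval -0.85 to 0.85, FDR = 0.998 in the same test) against the batch 2 controls. The interval within batch 1 still allows a fall by more than 1 on the log2 scale.

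Flt1 (chromosome 5, 147562196 to 147725988, minus strand) varied widely between libraries of one group. Its counts were 15, 922, 236 and 0 in the batch 1 controls, 451, 208, 391, 2 and 187 in the WD group and 150, 168, 180, 481 and 239 in the batch 2 controls. A library at or near 0 was present in both batch 1 groups, WD replicate 4 and control replicate 4. The mean level was 24.5 ± 36 CPM across the batch 1 controls (SD, n = 4), 19.8 ± 12.6 CPM across the WD group (SD, n = 5) and 20.1 ± 10.5 CPM across the batch 2 controls (SD, n = 5). The log2 fold change was -0.32 (SE 1.42, FDR = 1.00 in edgeR's test) within batch 1, where it was 1.45 without control replicate 2. Relative to the batch 2 controls it was -0.04 (SE 0.70, 95% interval -1.52 to 1.44, FDR = 0.987 in the same test).

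Flt4 (chromosome 11, 49609679 to 49652739, plus strand) had 0 counts in 6 of 14 libraries and did not pass the filter on low counts within batch 1. Its counts were 60, 0, 1 and 0 in the batch 1 controls and 0, 40, 62, 0 and 0 in the WD group. The batch 2 controls had 9, 65, 0, 25 and 39 counts. It was present in some mice of each group and at 0 counts in others, with a log2 fold change of -0.54 (95% interval -4.16 to 3.09, FDR = 0.939 in edgeR's test) against the batch 2 controls. Of 4 further lymphatic genes, Prox1, the master regulator of lymphatic identity (named after its values were seen), had 0 counts in all 14 libraries. Lyve1, a receptor of lymphatic endothelium that tissue macrophages also carry, was 95 ± 58.6 CPM across the WD group (SD, n = 5) and 249 ± 98.2 CPM across the batch 2 controls (SD, n = 5), a log2 fold change of -1.40 (SE 0.42, FDR = 0.0592 in edgeR's test). Pdpn gave 0.04 (FDR = 0.980 in the same test). Within batch 1 Lyve1 gave -1.43 (SE 0.63, FDR = 0.932 in edgeR's test) and Pdpn -0.28 (SE 0.85). The batch 1 controls had 255 ± 224 CPM of Lyve1 (SD, n = 4). Between the control groups Lyve1 gave -0.04 (SE 0.53). All 3 of these lymphatic genes tested within batch 1 were below 0, and 0 of them passed an FDR of 0.05.

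Tek (chromosome 4, 94739289 to 94874976, plus strand) was 3.13, 6.42, 3.83 and 28.4 CPM in the batch 1 controls and 8.75, 16.6, 2.15, 6.17 and 8.17 CPM in the WD group. In the batch 2 controls it was 2.05, 10.5, 3.52, 6.27 and 4.49 CPM. Control replicate 4 of batch 1 had the highest Tek of all libraries. For Tek the log2 fold change within batch 1 was -0.32 (SE 1.02, FDR = 1.00 in edgeR's test), and without that library it was 0.88. Against the batch 2 controls it was 0.63 (SE 0.68, 95% interval -0.82 to 2.07, FDR = 0.753 in the same test).

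Tie1 (chromosome 4, 118471191 to 118489849, minus strand) had 66, 138, 92 and 0 counts in the batch 1 controls and 97, 47, 70, 104 and 85 counts in the WD group. The batch 2 controls had 124, 48, 9, 118 and 40 counts. The WD group was the most even, at 6.48 ± 1.35 CPM (SD, n = 5), against 6.58 ± 4.80 CPM (SD, n = 4) and 5.4 ± 3.51 CPM (SD, n = 5) in the batch 1 and batch 2 controls. The log2 fold change was -0.03 (SE 1.33, FDR = 1.00 in edgeR's test) within batch 1 and 0.25 (SE 0.72, FDR = 0.931 in the same test) against the batch 2 controls.

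**Figure D3:**
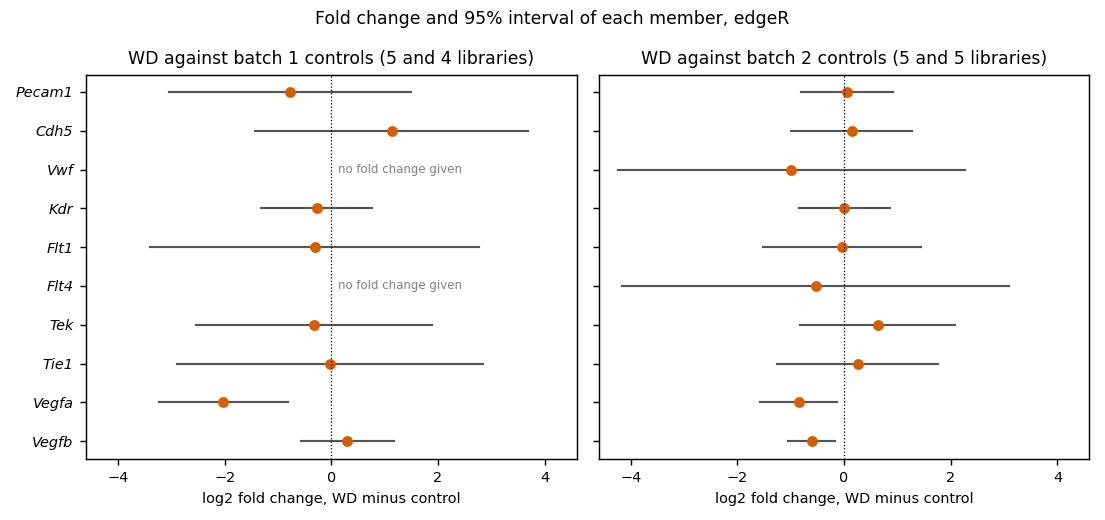
Log2 fold change (x axis, WD minus control) and 95% interval of each gene in edgeR's quasi-likelihood test, against the batch 1 controls (left) and the batch 2 controls (right); no fold change is given for the sparse genes Vwf and Flt4 within batch 1. The intervals of Vegfa exclude 0 in both panels before adjustment over all genes and that of Vegfb in the right panel, and all others include 0.

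Counted over the 10 genes, an FDR under 0.05 in edgeR's test was reached by 0 members in each comparison. Among all genes tested it was reached by 0% within batch 1, 0.53% over all 14 libraries, 6.4% against the batch 2 controls and 0% between the control groups of the 2 batches. At an unadjusted p under 0.05, 1 of 9 tested members differed within batch 1 (Vegfa), where 5.17% of all genes did. Over all 14 libraries it was 1 of 10 (Vegfa) against 7.73% of all genes, and against the batch 2 controls 2 of 10 (Vegfa and Vegfb) against 17.7%. Between the control groups it was again 2 of 10 (Vegfa and Vegfb) against 7.39%. Groups that do not overlap were found for 0 members within batch 1, over all 14 libraries and against the batch 2 controls, where 3.87%, 1.34% and 8.79% of all genes tested had them, and for 1 member, Vegfb, between the control groups. With so few members these counts cannot be set apart from the shares of all genes. DESeq2 called 1 member, Vegfa, within batch 1, where it called 0.938% of all genes, and over all 14 libraries, where it called 1.78%. Without control replicates 1 and 4, edgeR called 1 member, Vegfa, in each comparison that had held them, beside 0.796% of all genes within batch 1, 4.98% over the other libraries and 0.209% between the control groups. Against the batch 2 controls, limma-voom called Vegfa beside 6.91% of all genes, and edgeR without WD replicate 2 called Vegfa and Vegfb beside 7.86%. The libraries left out held the lowest Vegfa of the batch 1 controls and the highest Vegfa and Vegfb of the WD group.

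Control replicate 4 of batch 1 split the endothelial genes. Its counts of Pecam1, Cdh5, Flt1, Tie1, Vwf and Flt4 were 0, a limit of 0.243 CPM before scaling, whereas it had 395 counts of Kdr and 391 of Tek. Pecam1 had 128 to 1526 counts and Cdh5 41 to 562 counts in the other 13 libraries. Of 24 other endothelial genes in the table, 9 were at 0 in this library, among them Egfl7, Eng, Robo4 and S1pr1, which had at least 36 counts in every other library. Other genes of the same list were well above 0, with 2886 counts of Aqp1, a water channel of capillaries, 1078 of Cd34 and 691 of Esam, and 4 of the 24 genes (Erg, Sox17, Clec14a and Icam2) had a higher CPM there than in any other library. These named genes were chosen after their values were seen, apart from Aqp1, Cd34, Eng, Egfl7, Robo4 and S1pr1.

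The same library lacked genes of other kinds as well. Of 4331 genes with at least 10 CPM in each of the other 13 libraries, 254 (5.86%) were at 0 in control replicate 4. The same count was 24 genes (0.591%) in control replicate 1 and 0 to 5 genes in the remaining 12 libraries. WD replicate 4, with 2 counts of Flt1, 0 of Vwf and 0 of Flt4, had 5 such genes (0.127%). Pecam1 met the rule of 10 CPM, with at least 12.2 CPM in each of the other 13 libraries. Cdh5 fell to 3.25 CPM, Flt1 to 0.158 CPM, Tie1 to 0.674 CPM and Vwf and Flt4 to 0 CPM in some of them. Absence among genes as low as these was not counted, so that 5.86% is no measure of it. The absence of single endothelial genes in control replicate 4 thus went with a wider absence of genes in that library, and the cause was not tested.

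**Figure D4:**
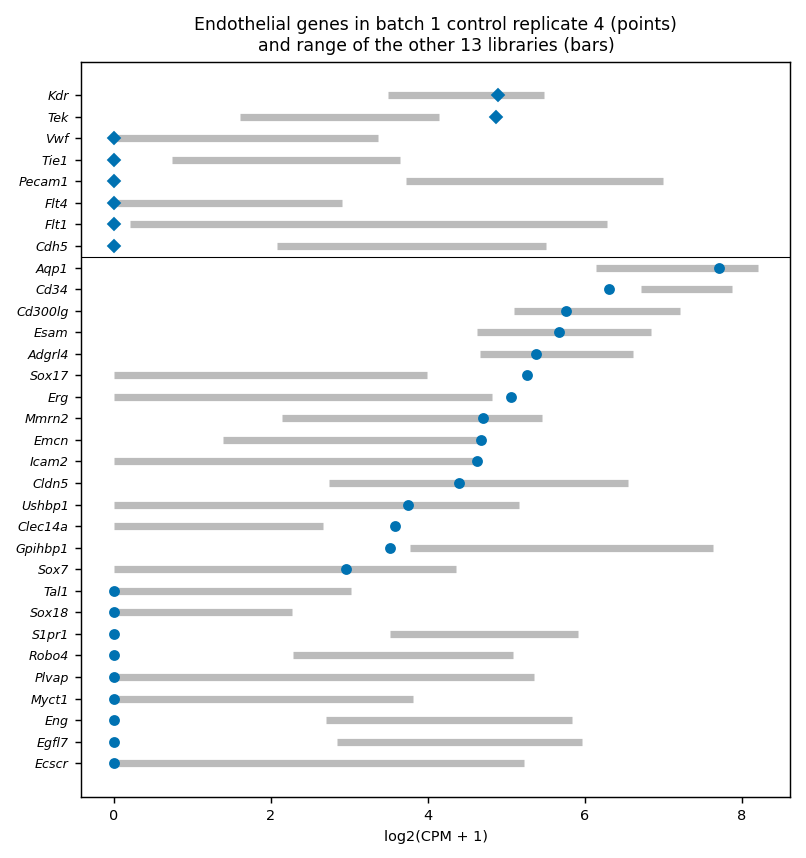
Log2(CPM + 1) (x axis) of 8 endothelial genes (diamonds, above the line) and 24 other endothelial genes (circles) in batch 1 control replicate 4, with the range of the other 13 libraries as grey bars. Of the 8 genes 6 are at 0 and Kdr and Tek are not, and 9 of the 24 others are at 0.

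Summed over the 8 endothelial genes, the level was 138 ± 102 CPM across the batch 1 controls (SD, n = 4), 120.0 ± 42.6 CPM across the WD group (SD, n = 5) and 114 ± 56.0 CPM across the batch 2 controls (SD, n = 5). The lowest libraries were WD replicate 4 at 48.9 CPM and batch 1 control replicate 4 at 57.0 CPM, and the highest was batch 1 control replicate 2 at 280.2 CPM. The 24 other endothelial genes summed to 634 to 1401 CPM in the batch 1 controls, 546 to 1234 CPM in the WD group and 494 to 1116 CPM in the batch 2 controls. All 3 groups overlapped in both sums. Without control replicates 1 and 4, the 2 remaining batch 1 controls had sums of 144 and 280.2 CPM over the 8 genes, against 48.9 to 155 CPM in the WD group. The 2 left out had the lowest sums of the batch 1 controls, 71.9 and 57.0 CPM. Leaving them out thus raised the control sums by construction.

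**Figure D5:**
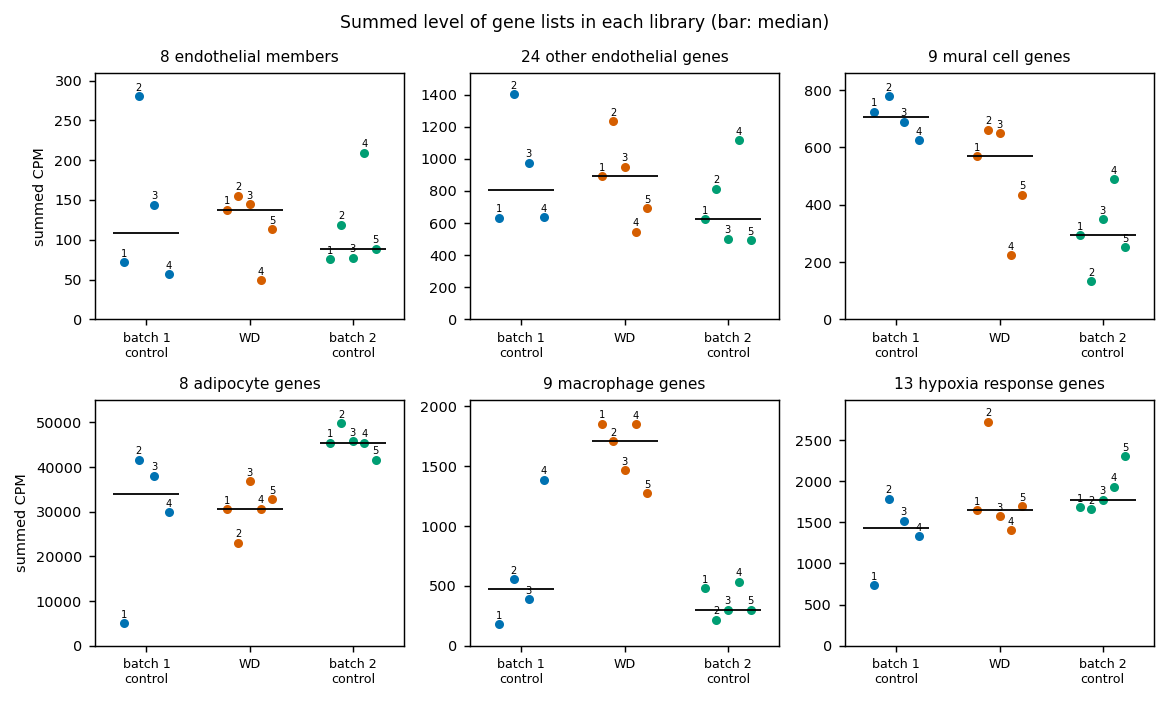
Summed CPM (y axis) of 6 gene lists in each library, with replicate numbers and the group median as a line. The sums of the 8 endothelial genes overlap between all groups, from 48.9 to 155 CPM in the WD group and from 75.5 to 209 CPM in the batch 2 controls, while the macrophage sum is 1274 to 1857 CPM in the WD group and 219 to 533 CPM in the batch 2 controls.

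The other endothelial genes gave no call. Of 22 tested within batch 1, 7 had a log2 fold change above 0 and 15 below, with a median of -0.15 beside 0.03 for all genes, and none passed an FDR of 0.05 or an unadjusted p of 0.05 in edgeR's test. Relative to the batch 2 controls, 15 of 23 were above 0 and 8 below, with a median of 0.33 beside 0.00 for all genes. Of all genes, 6.4% passed an FDR of 0.05 in that comparison and 17.7% an unadjusted p of 0.05 in edgeR's test. Within batch 1 these shares were 0% and 5.17%. Of the 23 endothelial genes none passed that FDR and 1 passed that p. This was Cd300lg (log2 fold change 0.69, FDR = 0.204 in edgeR's test), named after its value was seen. The 2 most abundant, Aqp1 and the progenitor and endothelial antigen Cd34, had log2 fold changes of -0.31 and 0.10 within batch 1 and of 0.45 and -0.07 against the batch 2 controls, with FDRs of 0.578 to 1.00 in edgeR's test.

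The other genes of the VEGF and angiopoietin pathway gave 0 calls at an FDR of 0.05 in edgeR's test in all 4 comparisons, and 1 or 2 of the 18 or 19 tested had an unadjusted p under 0.05 in each. Of all genes 5.17% to 17.7% did so in these comparisons. Within batch 1, 11 of 18 tested had a log2 fold change above 0, with a median of 0.13, and against the batch 2 controls 14 of 18, with a median of 0.31. The medians of all genes were 0.03 and -0.003. Nrp1, a coreceptor of VEGF-A and the most abundant of them, was 363 ± 105 CPM across the WD group (SD, n = 5) and 281 ± 56.4 CPM across the batch 2 controls (SD, n = 5), a log2 fold change of 0.36 (SE 0.23, FDR = 0.479 in edgeR's test). Ptprb, the endothelial phosphatase that acts on TIE2, gave 0.41 (SE 0.27, FDR = 0.512 in the same test). Within batch 1 the values were 0.18 for Nrp1 and 0.08 for Ptprb.

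Among the rest of that pathway, chosen here after their values were seen, Nrp2, the coreceptor of VEGF-C, came nearest to the threshold. It was 28.9 ± 13.9 CPM across the WD group (SD, n = 5) and 10.8 ± 4.23 CPM across the batch 2 controls (SD, n = 5), a log2 fold change of 1.41 (SE 0.42, FDR = 0.0579 in edgeR's test), and 12.9 ± 10.1 CPM across the batch 1 controls (SD, n = 4) (log2 fold change 1.16, FDR = 1.00 in the same test). Figf, which encodes VEGF-D, gave 0.84 (SE 0.39, FDR = 0.269 in edgeR's test) against the batch 2 controls and -0.11 within batch 1. Aplnr, the apelin receptor, was at 0 counts in all 4 batch 1 controls and at 4.93 ± 4.37 CPM across the WD group (SD, n = 5), with the lowest WD library also at 0, and gave an FDR of 0.557 in edgeR's test.

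The hypoxia response genes, among which VEGF-A itself is usually counted, gave 0 calls at an FDR of 0.05 in edgeR's test in each comparison, and 0 to 2 genes had an unadjusted p under 0.05. The share of all genes at that p was 5.17% to 17.7%. Within batch 1, 7 of 12 had a log2 fold change above 0 with a median of 0.11, and against the batch 2 controls 6 of 12 with a median of -0.02. The medians of all genes were 0.03 and -0.003. The most abundant were the glycolytic enzyme gene Aldoa, with log2 fold changes of 0.86 within batch 1 (FDR = 0.877 in edgeR's test) and 0.21 against the batch 2 controls (FDR = 0.779), and the mitophagy gene Bnip3, with 0.25 (FDR = 1.00) and -0.62 (SE 0.20, FDR = 0.0803 in the same test). Bnip3, like Vegfb, was higher in the batch 2 than in the batch 1 controls, by a log2 fold change of 0.85 (unadjusted p = 0.0315, FDR = 0.619 in edgeR's test).

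Genes of mural cells, the pericytes and smooth muscle cells that wrap vessels, gave 0 calls at an FDR of 0.05 in edgeR's test in each comparison, and 0 to 2 of 9 had an unadjusted p under 0.05. The share of all genes at that p was 5.17% to 17.7%. Within batch 1, 7 of 9 had a log2 fold change below 0, with a median of -0.38, and against the batch 2 controls 6 of 9 were above 0, with a median of 0.45. The medians of all genes were 0.03 and -0.003. The most abundant, the smooth muscle actin gene Acta2, was 491 ± 126 CPM across the batch 1 controls (SD, n = 4), 379 ± 152 CPM across the WD group (SD, n = 5) and 205 ± 118 CPM across the batch 2 controls (SD, n = 5). Its log2 fold change between the control groups was -1.27 (SE 0.45, FDR = 0.526 in edgeR's test). The smooth muscle myosin gene Myh11 gave -2.30 (SE 0.77, FDR = 0.593 in edgeR's test) within batch 1, and between the control groups -2.77 (SE 0.76, FDR = 0.445 in the same test). The batch 1 controls differed widely in Myh11, at 89.7 ± 102 CPM (SD, n = 4) with a range of 20.4 to 241 CPM.

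Genes of the remaining cell types were counted in the same way. Between the WD group and the batch 2 controls, where 6.4% of all genes were called, 3 of 7 stromal fibroblast genes rose in edgeR's test (Col1a1, Col3a1 and Lum, with log2 fold changes of 1.47, 1.26 and 1.16 and FDRs of 0.00305, 0.00461 and 0.033). The 2 most abundant, Dcn and Dpt, had log2 fold changes of 0.37 (FDR = 0.534) and 0.04 (FDR = 0.966), and Pi16, named after its value was seen, one of -0.76 (FDR = 0.525). There 0 of 6 mesothelial and 0 of 8 blood and platelet genes passed the threshold. The most abundant mesothelial genes, Lrrn4 and Krt19, gave -0.03 and -0.97, and the hemoglobin genes Hba-a1 and Hbb-bs gave -0.25 and -0.35, in the same comparison. Within batch 1, 0 of 7 stromal, 0 of 6 mesothelial and 0 of 8 blood and platelet genes passed it, and 0 of each had an unadjusted p under 0.05. Of all genes, 0% passed it there and 5.17% had such a p in edgeR's test. Over all 14 libraries, where 0.53% of all genes passed the threshold, 3 of 9 macrophage genes rose and no gene of the other lists passed. Of the epididymis genes only 1 to 3 passed the filter in any comparison, and none passed an FDR of 0.05.

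The genes whose levels followed the 8 endothelial genes most closely were sought over the 14 libraries, by Pearson's r of log2(CPM + 1) with the mean of the 8, as a description. Robo4, an endothelial guidance receptor, ranked first of 12645 genes (r = 0.94), and Eng, the endothelial coreceptor endoglin, was at rank 4 (r = 0.90). The other listed genes among the 8 most alike were Notch4 (r = 0.84), Gpihbp1 (r = 0.82), Egfl7 (r = 0.81), Ptprb (r = 0.80), S1pr1 (r = 0.76) and Adm (r = 0.75). The 8 genes outside the lists were Cpne8, Stxbp2, Mapk8ip3, Ogfrl1, Btbd3, Slc25a14, Wrb and Galns, with r of 0.89 to 0.91. Of 23 other endothelial genes ranked, 19 had a positive r and 4 were among the first 0.791% of genes. Their median r was 0.53, beside 0.20 for all genes. Without the 2 libraries farthest from the median, batch 1 control replicate 4 and WD replicate 4, r was 0.86 for Robo4, 0.68 for Eng and 0.59 to 0.76 for the 8 genes outside the lists. For the other listed genes named here it ran from 0.48 (Egfl7) to 0.75 (Ptprb). The libraries share depth and the lack of genes in control replicate 4 with these values. For the 2 ligands r was lower, at 0.37 for Vegfa and 0.25 for Vegfb.

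Between pairs of the 8 endothelial genes the likeness was uneven. Over 14 libraries r was 0.89 for Cdh5 and Flt1, 0.80 for Pecam1 and Tie1 and 0.74 for Pecam1 and Cdh5. Without control replicate 4, where 6 of the 8 are at 0, these became 0.86, 0.51 and 0.28. The negative pairs among the 8 all held Tek, which was highest in that library, with r of -0.59 for Pecam1, -0.42 for Tie1 and -0.30 for Cdh5, and without it -0.12, 0.08 and 0.34. Kdr and Tek, the pair present in that library, had r of 0.48 with it and 0.49 without it. Vegfa and Vegfb had r of 0.11 both with and without it.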

How the data were processed

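Total RNA of 1 eWAT sample per mouse was made into QuantSeq 3′ libraries. The authors aligned the reads to mm10 with Bowtie2, counted unique and multiple alignments per gene with bedtools, and deposited these counts together with log2 values of trimmed-mean (TMM) scaled CPM from edgeR. The strand used for counting is not given in the sources used here. From the deposited counts, edgeR 4.0.16 (R 4.3.3) was run with TMM factors, its filter on low counts (minimum 10) and the quasi-likelihood test, with Benjamini-Hochberg adjustment over all genes tested and a threshold of 0.05. The 4 comparisons were WD against the controls of batch 1, of both batches and of batch 2, and batch 2 against batch 1 controls. They share libraries. The SE was computed from the log2 fold change and the statistic of the quasi-likelihood test. Intervals are 95% intervals of the log2 fold change built from that SE. One library per mouse makes each replicate a separate animal. Alternatives were other size factors and filters, DESeq2 1.42.0, limma-voom 3.58.1, a batch covariate, a replicate block, the deposited log2 values and leaving out libraries. The fits were tested on simulated data with fold changes larger than the diet fold changes given here for the 10 genes. That test therefore does not show how well changes of their size are found.

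The 10 genes and the gene lists were chosen with earlier results of these data known. From each other list the text names the 2 genes with the largest mean CPM and up to 6 that passed the threshold (lowest FDR first), and from all genes the 8 listed and 8 unlisted ones most like the mean of the 8 endothelial genes in log2(CPM + 1). Genes outside this rule are marked as chosen after their values were seen.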

Additional observations from a re-analysis of the deposited data

Results flagged for a closer look

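Among 30 sets of values (10 genes in 3 groups), 4 held 1 library far from the others of its group on the log2(CPM + 1) scale. Chance marks about 1 set in 20 where values vary smoothly, a rate that does not hold for values tied at or near 0, and 3 of the 4 sets come from the same batch 1 controls. Flt1 was 0.21 in WD replicate 4 and 4.05 to 5.04 in the other 4 WD libraries (2 counts against 187 to 451). Tie1 was 0 in batch 1 control replicate 4 and 3.02 to 3.65 in the other 3 controls of that batch (0 counts against 66 to 138). The other two sets concern sparse genes with a single high library. Flt4 was 2.90 in batch 1 control replicate 1 and 0 to 0.12 in the other 3 (60 counts against 0 to 1), and Vwf was 3.37 in batch 1 control replicate 3 and 0 in the other 3 (112 counts against 0). The cause was not tested.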

How the results depend on the processing

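Within batch 1, genes with an FDR under 0.05 numbered 0 in edgeR (628 at an unadjusted p under 0.05), 114 in DESeq2, 108 without control replicates 1 and 4 and 0 to 48 without 1 library (48 without control replicate 4). Over all 14 libraries, 67 genes became 128 when every library needed 1 CPM, 225 in DESeq2, 223 in limma-voom, 1 with batch as a covariate, 619 without the same 2 controls and 28 to 289 without 1 library (28 without WD replicate 3, 289 without control replicate 4 of batch 1). Between control groups, 0 genes (895 at an unadjusted p under 0.05) became 111 in DESeq2, 28 without the 2 controls and 0 to 2 without 1 library. Of the 10 genes, 1 (Vegfa) was called by DESeq2 within batch 1 and over all libraries, 1 (Vegfa) without the 2 controls in each of the 3 comparisons that hold them, and against the batch 2 controls 1 (Vegfa) by limma-voom and 0 to 2 without 1 library (Vegfa and Vegfb without WD replicate 2). The 2 controls had the lowest Vegfa of the batch 1 controls, and WD replicate 2 the highest Vegfa and Vegfb of the WD group. Vegfa stayed below 0 in every alternative run, with log2 fold changes of -2.69 to -1.59 within batch 1, where leaving out 1 library gave FDRs of 0.0997 to 0.979 in edgeR's test. Kdr also kept its sign within batch 1 (-0.46 to -0.18), as did Cdh5 (0.32 to 2.72). Against the batch 2 controls Vegfb (-0.74 to -0.51), Tek (0.23 to 1.02) and Vwf (-2.68 to -0.41) did so. In each of these 2 comparisons the remaining members changed sign in some alternatives. Within batch 1 the median log2 fold change of all genes was 0.03, and 0.42 in limma-voom, which gave 2.15 for Pecam1, 1.63 for Flt1 and 1.62 for Tie1, the deposited log2 values gave 0.48, 0.73 and 0.44, and without the 2 controls Vegfb was -0.053 and Tek 0.71. With the batch covariate Vegfb was 0.28. Against the batch 2 controls, Cdh5 was -0.19 in limma-voom and -0.14 from the deposited log2 values, and Kdr was -0.028 with library totals alone and -0.0098 with no filter. Leaving out 1 library within batch 1 gave -1.21 to 0.15 for Pecam1, -0.76 to 1.45 for Flt1, -0.73 to 0.88 for Tek and -0.46 to 0.37 for Tie1. Against the batch 2 controls it gave -0.14 to 0.50 for Pecam1, -0.073 to 0.43 for Cdh5, -0.18 to 0.38 for Kdr, -0.29 to 0.29 for Flt1, -0.034 to 0.51 for Tie1, -2.68 to -0.41 for Vwf and -1.26 to 0.11 for Flt4. The cause of these changes was not tested. The deviations of libraries with the same replicate number correlated weakly (-0.03 to 0.09). No label states that the numbers pair the mice, and with so few libraries these correlations cannot settle it. With the replicate block 0, 93 and 594 genes were called in the 3 diet comparisons against 0, 67 and 773 without it, and within batch 1 the block gave 0.15 for Pecam1, 1.29 for Flt1, 0.37 for Tie1 and -2.02 for Vegfa (FDR = 1.00 in edgeR's test). Vwf and Flt4 were at 0 in 6 of 14 libraries each.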
